A study of Mus musculus with 56 samples.

Results

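The genes described are the nuclear genes of the mitochondrial respiratory chain and ATP synthase in single epithelial cells of mouse colon tumors. They were taken as every entry of the deposited expression table that maps to a protein-coding symbol starting with Ndufa, Ndufb, Ndufc, Ndufs, Ndufv, Sdh, Uqcr, Cox4, Cox5, Cox6, Cox7, Cox8 or Atp5, which gave 97 of 24410 genes. Of these, 84 encode subunits of the 5 complexes (36 of complex I, 4 of complex II, 8 of complex III, 20 of complex IV and 16 of complex V), and 13 encode assembly factors. Genes on the mitochondrial chromosome are not among them, because the table holds 0 entries from that chromosome. The cells came from 3 colon tumors, mixed after digestion, of 1 male ApcMin/+ mouse, which carries a truncated Apc allele that activates Wnt signaling. At 10 weeks the mouse began 5 days of 2% dextran sulfate sodium, which damages the lining of the colon, and its tumors were taken at 12 weeks. Cells negative for DAPI, Cd31 and Cd45 and positive for Epcam and Cd24 were sorted singly, and only cells whose cDNA gave Lgr5, a stem cell receptor gene, in 32 cycles of PCR went on to sequencing. There is 1 group and 1 mouse, with no untreated or non-tumor cells, so every relation below is a description across cells, with no test.

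The respiratory chain sits in the inner mitochondrial membrane. Complex I takes electrons from NADH and complex II from succinate, complex III passes them to cytochrome c, complex IV hands them to oxygen, and complex V, the ATP synthase, uses the proton gradient that results to make ATP. Most subunits are encoded in the nucleus and must be built together with a few made inside the mitochondrion. In the intestinal crypt, stem cells are known to rely on mitochondrial respiration, and the transcription factor PROX1, which the title of the series places beside quiescence and chemoresistance, marks a population of intestinal tumor cells.

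Values are in TPM, a unit that is scaled to gene length and to a fixed total per library and keeps no read depth, so the depth behind each value is unknown. Of 56 libraries, 6 pairs had a Pearson's r of log2(TPM + 1) between 0.957 and 0.992, while the next highest pair had 0.782. The mean of each such pair stands for 1 cell, which leaves 50 cells. Seen means at least 1 TPM, and 5903 genes were seen in the median cell (range 1316 to 7234). The cell with 1316 genes had 85.1% of its TPM under a single entry, Gm10925. Some rho values and counts are given with and without it, and every Pearson's r across cells includes it. Epcam and Cd24a were seen in 50 of 50 cells, whereas Ptprc (Cd45) and Pecam1 (Cd31) were seen in 0. Of the other markers of unwanted cell types, Csf1r was seen in 21 cells, Pdgfra in 25, Cd68 in 10 and Vwf in 5, and Cd3e, Kdr, Col1a2, Dcn and Lum were listed at 0 in every cell.

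The module was broadly expressed. The 97 genes summed to 1.5% of TPM in the median cell, from 0.00647% in the cell with 1316 genes to 2.70%. Of the 97, 90 reached 1 TPM in 20% of cells (77 of 84 subunits and 13 of 13 assembly factors), against 37.6% of all genes of the table. The 77 subunits are the ones whose levels and relations are described below, and their names are not a complete list of the complexes. In the median cell 74.5 of the 77 were seen, and 69 of the 97 genes were seen in at least 45 cells. Seen in every cell were 7 (7.22% of the 97), against 1.18% of all genes and 1.28% of protein-coding genes: Ndufa7, Uqcrq, Cox8a, Atp5a1, Atp5b, Atp5d and Atp5g3. Without the cell with 1316 genes, in which 10 of the 77 subunits were seen, 39 of the 97 and 2.54% of all genes were seen in every cell.

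**Figure D1:**
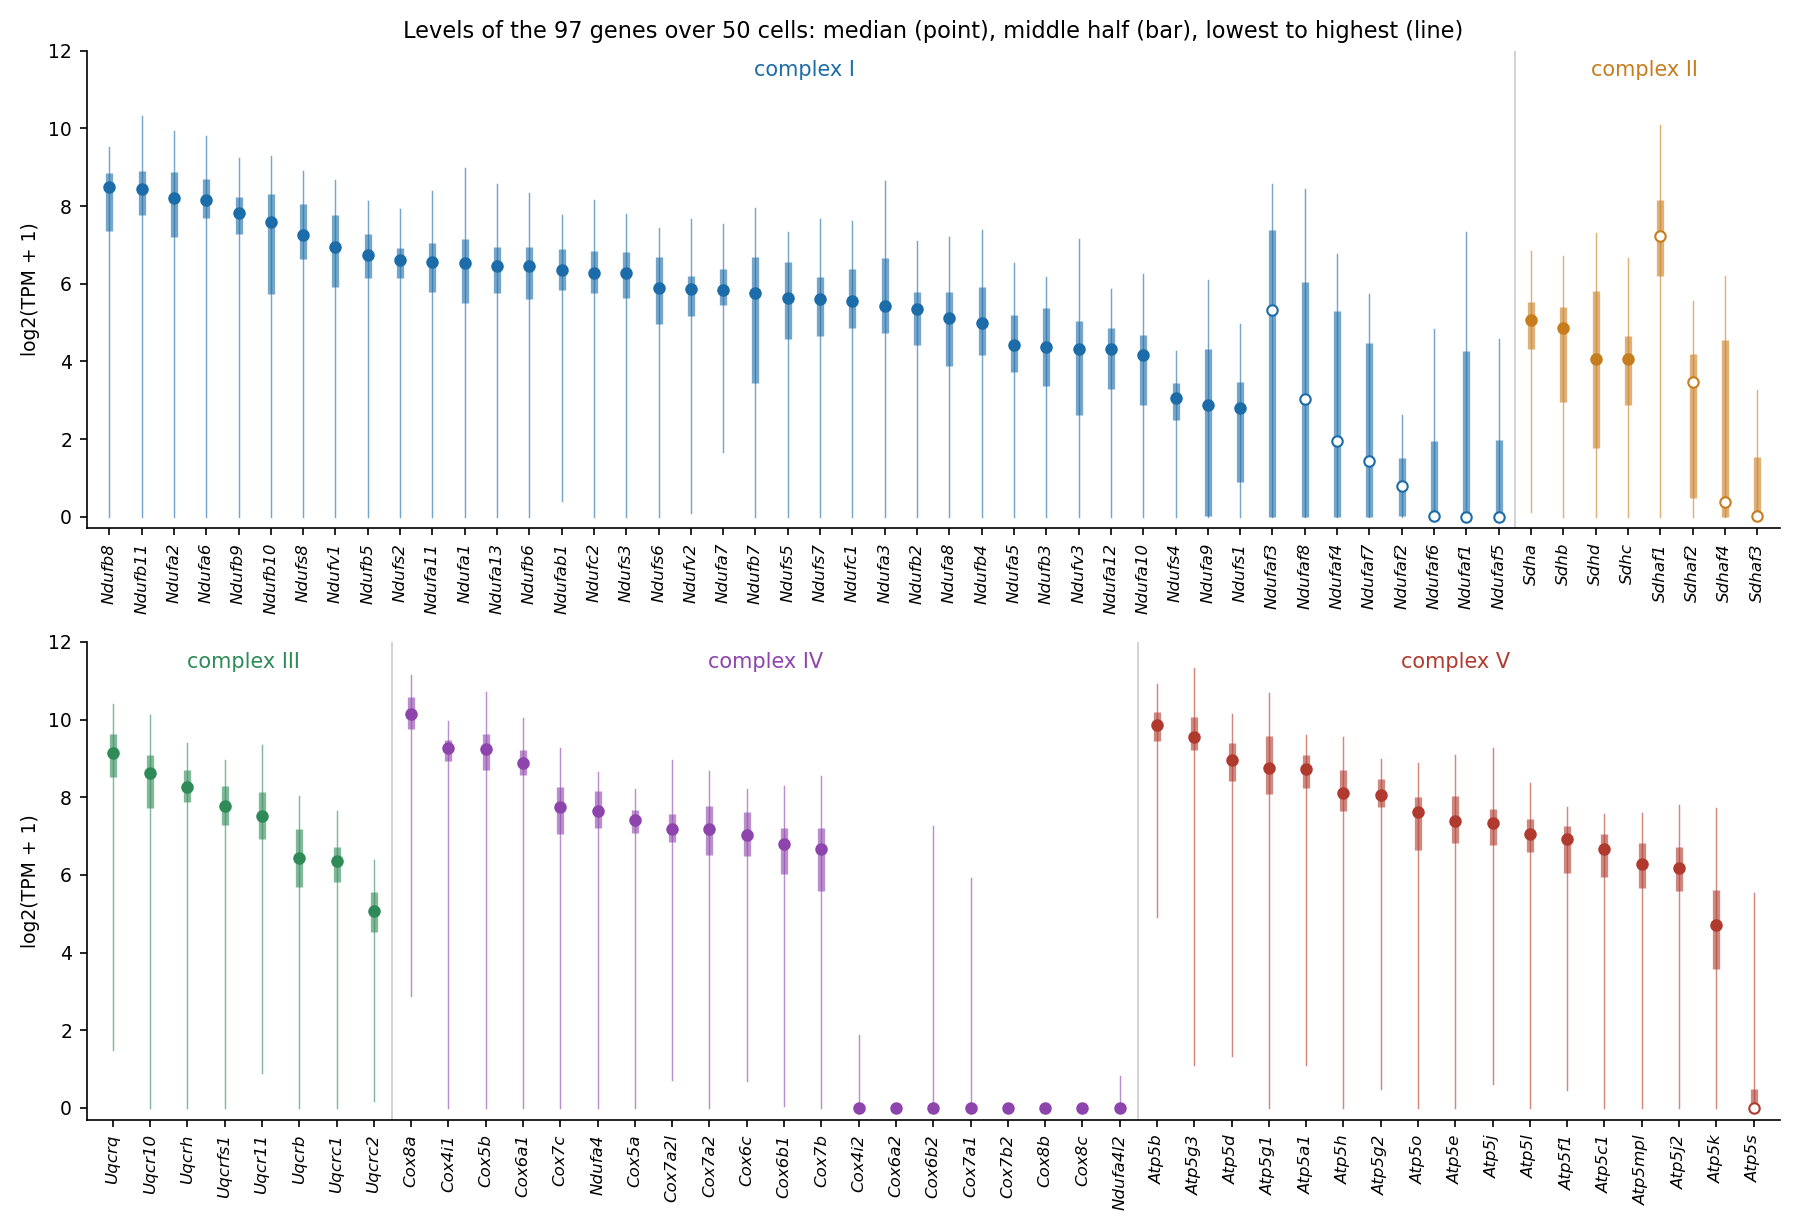
Levels of the 97 genes in 50 cells as log2(TPM + 1), ordered by median within each complex; points are medians, thick bars the interquartile range, thin lines the lowest to highest cell, and open points assembly factors. Cox8a and Atp5b have the highest medians, and 8 genes of complex IV have a median of 0.

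Levels stepped between complexes in nearly every cell. The median TPM per subunit, taken within each cell and then over cells, was 61.8 for complex I (SD 26.1 over 50 cells), 24.8 for complex II (SD 12.7), 186 for complex III (SD 90.4), 189 for complex IV (SD 76.7) and 184 for complex V (SD 75.8). On the scale of the mean log2(TPM + 1) of a complex, complexes IV and V each lay above complex I in 50 of 50 cells and complex III in 48 of 50. Complex II lay above complex I in 3 cells. Complexes III, IV and V were not separated beyond their spread: the difference of complex IV from complex III had a median of 0.00 log2 units and an SD of 0.52, and complex IV was the higher in 25 of 50 cells. Complex V exceeded complex IV in 39 cells, by a median of 0.25 log2 units (SD 0.32). The cell with 1316 genes lay far below the rest in all 5 complexes.

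**Figure D2:**
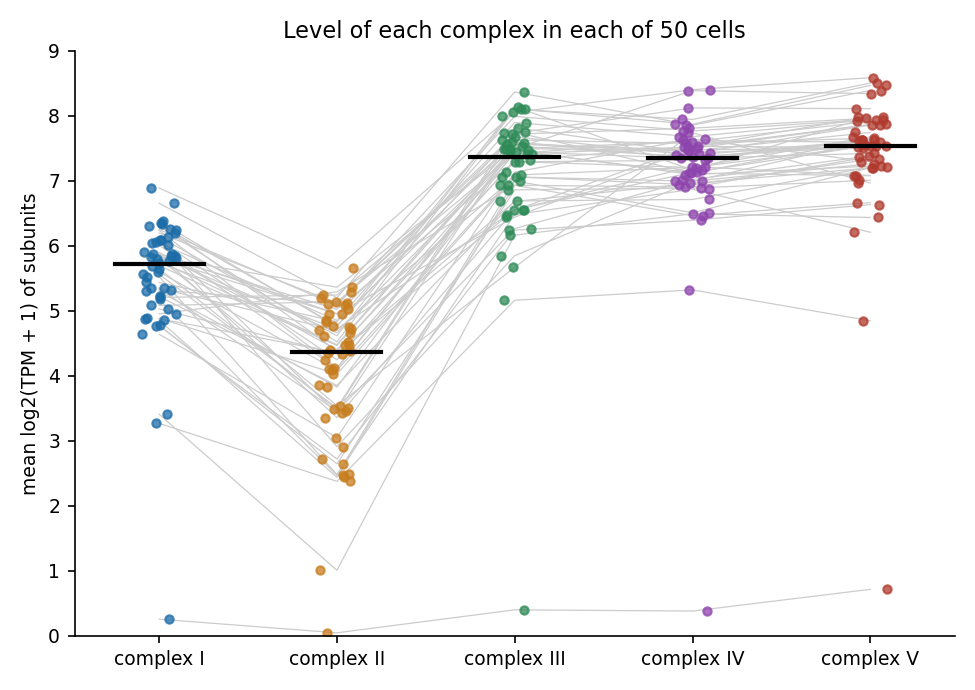
Mean log2(TPM + 1) of the subunits of each complex that reached 1 TPM in 20% of cells, in each of 50 cells; grey lines join the values of 1 cell and black bars are medians. Complex II lies below complex I in 47 of 50 cells, and complexes III to V overlap.

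In complex I, the highest levels belonged to small accessory subunits, which surround the catalytic core. Ndufb8, an accessory subunit of the membrane arm (chromosome 19, 44548572 to 44555440, minus strand, GRCm38), ranged from 0 TPM through a median of 360 to 735. Ndufb11 had a median of 345 TPM (0 to 1273) and Ndufa2 of 295 TPM (0 to 977). All 3 were under 1 TPM in 1 cell each. The 7 core subunits in the table, which carry the redox centers, had medians from 5.93 to 152 TPM, with Ndufs8, an iron-sulfur subunit, the highest (0 to 480). The lowest member of the complex was a core subunit, Ndufs1, the largest iron-sulfur protein of the complex, with 0, 5.93 and 30.4 TPM as its lowest, median and highest values. Core and accessory subunits therefore overlapped in level, with group medians of 76.4 and 56.4 TPM. Ndufs1 overlaps Eef1b2, a translation factor gene at a median of 3951 TPM, on the opposite strand. The sources used here do not say whether counting used strand, so reads of such neighbors may not be told apart. Of the 97 genes, 27 overlap another annotated gene and 24 do so on the opposite strand, among them Ndufs6 with Mrpl36 (358 TPM) and Ndufaf3 with Impdh2 (232 TPM).

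Complex II, which also works in the tricarboxylic acid cycle, was the lowest. Sdha, its flavoprotein, had 0.08, 32.4 and 113 TPM as lowest, median and highest values, and Sdhb, its iron-sulfur subunit, 0, 28.1 and 104 TPM. The membrane anchors Sdhd and Sdhc had medians of 15.8 and 15.6 TPM. The 4 subunits thus lay within a narrow range of medians. Sdhaf1, which helps to insert the iron-sulfur clusters of Sdhb, stood above all of them at a median of 150 TPM (0 to 1085) and was seen in 48 cells.

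In complex III, Uqcrq, a small subunit (chromosome 11, 53427922 to 53430831, minus strand), was seen in every cell at 1.8, 559 and 1361 TPM (lowest, median, highest). Uqcr10 had a median of 391 TPM (0 to 1105) and Uqcrh, the hinge protein near cytochrome c1, of 306 TPM (0 to 671). The Rieske iron-sulfur subunit Uqcrfs1, which carries out the electron transfer, had a median of 217 TPM (0 to 500). The core proteins of the matrix side were lower: Uqcrc1 had a median of 81.7 TPM and Uqcrc2, the lowest, of 32.5 TPM (0.14 to 82.6). Of the small subunits, Uqcr11 (182 TPM) and Uqcrb (85.4 TPM) lay below Uqcrfs1, so size and level did not follow one order.

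Complex IV held the highest gene of all and also the genes that were not seen. Cox8a (chromosome 19, 7215153 to 7217616, minus strand), a small membrane subunit, had 6.38, 1124 and 2261 TPM as its lowest, median and highest values, above 98.7% of the genes tested by mean. Cox4i1, the widely expressed form of a regulatory subunit, had a median of 618 TPM (0 to 996), and Cox5b, a zinc-binding subunit, of 602 TPM (0 to 1676). The tissue isoforms separated sharply. Widely expressed forms were at medians of 1124 (Cox8a), 618 (Cox4i1), 473 (Cox6a1), 201 (Ndufa4), 145 (Cox7a2 and Cox7a2l), 109 (Cox6b1) and 101 TPM (Cox7b). Of the alternative forms, Cox6a2 and Cox8b, known from heart and skeletal muscle, and Cox8c, known from testis, were listed at 0 in all 50 cells. Cox7b2, also a testis form, reached 0.03 TPM, Ndufa4l2, a hypoxia-induced form, 0.77 TPM, and Cox4i2, known from lung and hypoxia, 2.67 TPM in its 1 cell above 1 TPM. In contrast, Cox6b2 was seen in 7 cells at up to 153 TPM and the muscle form Cox7a1 in 11 cells at up to 60.1 TPM, so these forms were seen in a minority of cells at sizeable values. Cox7a1 was thereby the lowest member of complex IV that passed the filter, at a median of 0.

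In complex V, the catalytic beta subunit Atp5b (chromosome 10, 128083273 to 128090391, plus strand) was the highest, at 29.2, 935 and 1923 TPM (lowest, median, highest). Atp5b kept 29.2 TPM even in the cell with 1316 genes. The other F1 subunits Atp5d (delta), Atp5a1 (alpha), Atp5e (epsilon) and Atp5c1 (gamma) had medians of 495, 422, 167 and 101 TPM. The c-ring, the rotor that proton flow turns, is encoded by 3 genes with different import sequences and the same mature protein. Atp5g3 had 1.16, 755 and 2561 TPM as its lowest, median and highest values, Atp5g1 a median of 433 TPM (0 to 1638) and Atp5g2 of 264 TPM (0.40 to 509). Within a cell, Atp5g3 made up a median of 52.5% of their summed TPM (SD 11.1 percentage points over 49 cells), Atp5g1 31% (SD 10.0) and Atp5g2 18.4% (SD 10.9). The stalk and membrane subunits ran from Atp5h at 274 TPM (0 to 745) down to Atp5k, subunit e, at 25.3 TPM (0 to 211).

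The assembly factors, which help to build complexes and are not part of them, were lower and more irregular. Their group median was 0.74 TPM, against 101 TPM for the 77 subunits. The largest spread over cells of all 97 genes was found here: the SD of log2(TPM + 1) was 3.45 for Ndufaf3, 2.96 for Ndufaf8, 2.63 for Ndufaf1 and 2.59 for Ndufaf4, followed by the subunit Ndufb10 at 2.53. Ndufaf3 was seen in 32 cells and Ndufaf1 in 19, so each was at a high level in some cells and not seen in others.

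For 2 subunits the table splits a sequence over a gene and a processed pseudogene, and their own levels are uncertain. The coding sequence of Cox7c, a small complex IV subunit (chromosome 13, 86044816 to 86046904, minus strand), is identical over 192 bases to the whole of Gm12338 (chr11:75599763-75599954, minus strand, GRCm38). Ndufs5, an accessory complex I subunit of the intermembrane space (chromosome 4, 123712710 to 123718202, minus strand), shares its coding sequence with BC002163 (chr16:42955631-42955949, plus strand). They are printed from the GENCODE M21 transcripts, whole for Gm12338 and bases 1 to 200 of 319 for BC002163, to show how few letters set the pseudogenes apart from the genes. Capitals in the second mark the 2 differences from Ndufs5, T81C and A105G, counted from 1 at the first base printed with the base of Ndufs5 first.
Gm12338: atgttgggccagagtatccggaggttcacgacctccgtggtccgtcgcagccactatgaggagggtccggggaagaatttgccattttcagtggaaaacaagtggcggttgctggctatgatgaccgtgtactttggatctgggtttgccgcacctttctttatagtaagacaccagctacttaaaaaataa
BC002163: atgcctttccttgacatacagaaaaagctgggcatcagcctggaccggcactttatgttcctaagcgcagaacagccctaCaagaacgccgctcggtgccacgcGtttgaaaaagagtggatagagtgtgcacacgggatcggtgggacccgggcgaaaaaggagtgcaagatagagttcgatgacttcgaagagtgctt
In both cases the pseudogene entry carried most of the TPM. Gm12338 had a median of 3302 TPM against 216 TPM for Cox7c, and BC002163 of 646 TPM against 48.4 TPM for Ndufs5. Over 50 cells each entry followed its gene closely, with Spearman's rho of 0.98 for Cox7c and 0.99 for Ndufs5. Another entry concerns complex V itself: Gm10925, at a median of 8.82% of TPM, matches the mitochondrial gene mt-Atp6, a proton channel subunit of ATP synthase, at all 678 bases of its transcript. It was the only entry to match any of the 13 protein-coding genes of the mitochondrial chromosome under the criteria used (95% identity over 150 bases). Across cells the mean level of the 77 subunits had a rho of -0.39 with Gm10925, and 0.273% of genes tested had a lower one. The relation was -0.23 and -0.64 in cells of the sequencing indexes N704 to N707 (32 cells) and N708 to N710 (18 cells). The cell with 1316 genes, at 85.1% of TPM under Gm10925 and a subunit level of 0.37 log2 units, is among the 18. The values of -0.64 and -0.39 are given only with it. TPM sum to a fixed total, so an entry that takes a large share lowers the values of all others in that cell. Whether this accounts for the relation with Gm10925 was not tested.

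**Figure D3:**
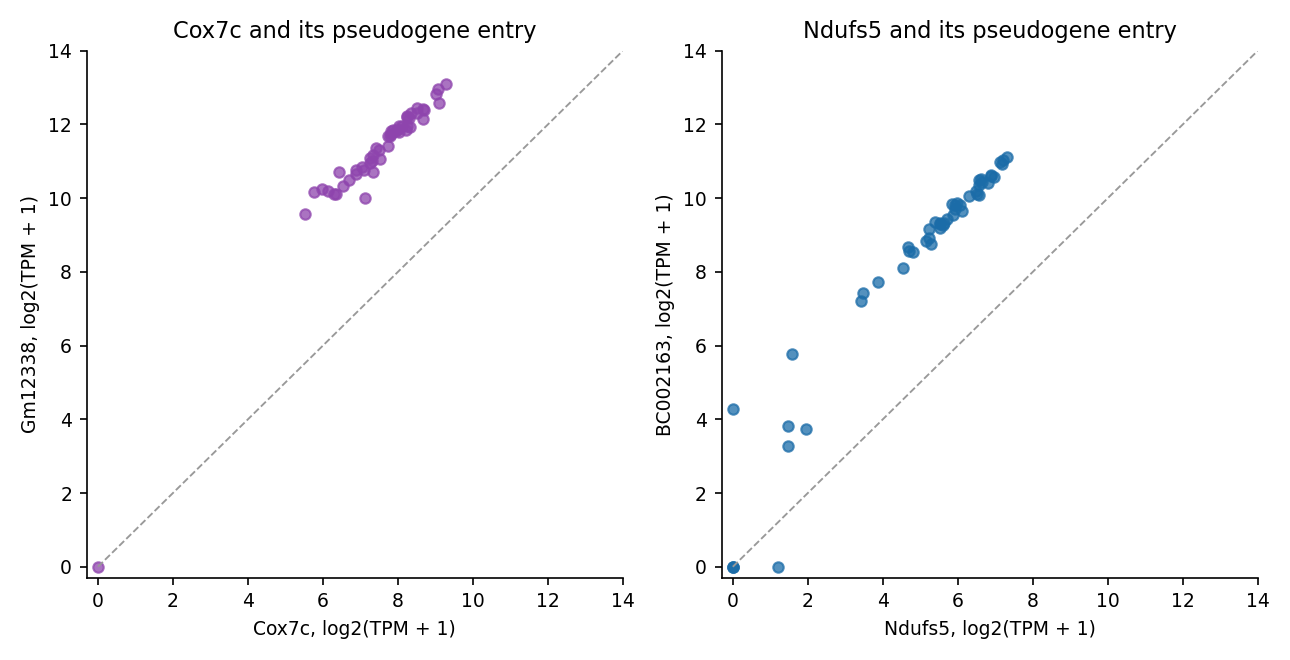
Cox7c against Gm12338 and Ndufs5 against BC002163 in each of 50 cells, on log2(TPM + 1) axes; the dashed line marks equal values. Nearly all cells lie above the line and along a narrow band.

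Subunits moved together across cells. Among the 2926 pairs of the 77 subunits, the median Spearman's rho over 50 cells was 0.26, and 92.7% of pairs were positive. Pairs within complex V had a median of 0.34, within complex IV of 0.32, within complex III of 0.27, within complex I of 0.23 and within complex II of 0.08 (6 pairs). Pairs between complexes reached similar values, 0.35 between complexes IV and V and 0.26 between I and V, so co-variation was not restricted to partners in 1 complex. At a mean log2(TPM + 1) of 6 or more, pairs of the 47 subunits had a median of 0.30, against 0.11 over pairs of all 739 genes at that level. Pairs of cytosolic ribosomal protein genes had a median of 0.32, proteasome genes of 0.14 and mitochondrial ribosomal protein genes of 0.11. With each cell centred on its median over the 287 genes seen in every cell, the median within the 77 subunits was 0.13. Leaving out the cell with 1316 genes, with no centring, gave a median of 0.21. The SD over cells of most subunits was under that of the median gene of like level: of the 19 subunits with a mean between 6 and 7 on the log2(TPM + 1) scale, 15 had an SD under the median of the 270 genes in that range, with a median SD of 1.45 against 1.83. Between 7 and 8 this held for 13 of 15 subunits (1.41 against 1.66).

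The relation to cycling was described with the mean log2(TPM + 1) of 30 genes of the G2 and M phases and of 22 genes of S phase, and in both cases it was positive. The mean level of the 77 subunits had a rho of 0.48 with the G2/M list and 0.45 with the S phase list over 50 cells, which share 1 mouse and a small set of indexes and differ in the number of genes seen. Leaving out the cell with 1316 genes gave a rho of 0.45 and 0.41. Pearson's r over all 50 cells was lower, at 0.34 and 0.35. With the 2 cells of most extreme list level left out, r was 0.28 and 0.41. In cells of N704 to N707 (32 cells) and of N708 to N710 (18 cells), rho was 0.53 and 0.39 for G2/M and 0.53 and 0.25 for S phase, and by second index, over 26 cells of N502 to N505 and 27 of N506 to N517, it was 0.45 and 0.51 for G2/M and 0.40 and 0.43 for S phase. These second-index sets overlap, since 3 averaged cells join a library from each. The cell with the highest G2/M level (6.17 log2 units) also had the highest subunit level (7.55), while the 5 other cells with a G2/M level above 4 had subunit levels from 6.05 to 7.16, and the cell next in line, at a G2/M level of 3.03, had 7.13. For single genes, Mki67, the proliferation marker, had a rho of 0.31 with the subunit level and was seen in 14 cells, and Top2a, the DNA topoisomerase of dividing cells, 0.38 and 18 cells.

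**Figure D4:**
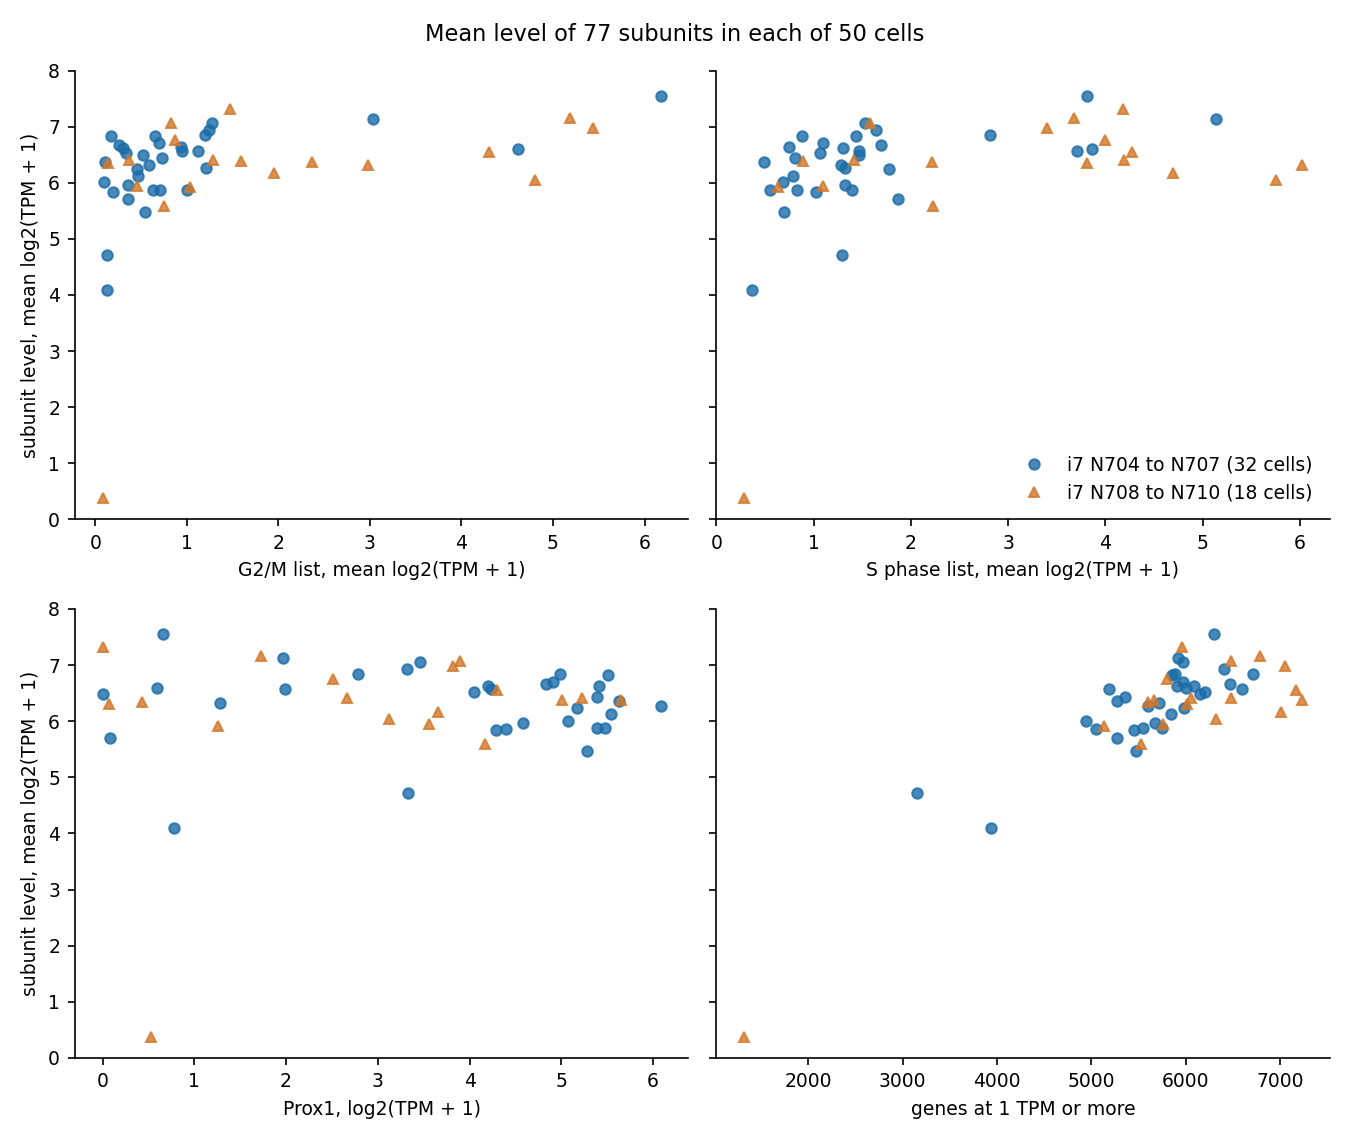
Mean log2(TPM + 1) of the 77 subunits in each of 50 cells against the G2/M list, the S phase list, Prox1 and the number of genes at 1 TPM or more, with symbols for the sequencing index group. The relation with genes per cell is the tightest of the 4 (rho 0.64), and the cell with 1316 genes lies far below all others.

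The number of genes seen in a cell moved with the same lists. The subunit level had a rho of 0.64 with genes per cell, and the partial rho given genes per cell was 0.18 for G2/M and 0.043 for S phase. With each cell centred as above, both were 0.24. Given the S phase list, the partial rho with G2/M was 0.28. By complex, the rho with the G2/M list was 0.40 for complex I, 0.48 for II, 0.49 for III, 0.45 for IV and 0.54 for V, and given genes per cell it was 0.07, 0.35, 0.24, 0.20 and 0.33. The mean of all genes tested had a rho of 0.41 with G2/M and 0.53 with S phase. On the same measure, mitochondrial ribosomal protein genes had 0.68 and 0.77, tricarboxylic acid cycle genes 0.55 and 0.47, proteasome genes 0.51 and 0.55, cytosolic ribosomal protein genes 0.47 and 0.26, housekeeping genes 0.14 and 0.41, and glycolysis genes 0.16 and 0.31. Given the mean of the mitochondrial ribosomal protein genes, the partial rho of the subunit level was -0.07 with G2/M and -0.32 with S phase, whereas given the housekeeping genes it was 0.46 and 0.38.

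Gene by gene, the share of subunits past the size of 0.3 with G2/M was highest in the ATP synthase by plain rho, but not after centring. A rho of 0.3 or more with the G2/M list was found in 33 of the 77 subunits (42.9%), against 14.8% of the 9166 genes tested, and a rho of -0.3 or less in 1, against 1.42%. It was above 0 in 72 of 77, against 71.4% of genes, and the median over subunits was 0.26, beside 0.10 over all genes. The count was 11 of 16 in complex V, 7 of 13 in complex IV, 4 of 8 in complex III, 2 of 4 in complex II and 9 of 36 in complex I. Without the cell with 1316 genes it was 21 subunits, against 11.9% of genes. As partial rho given genes per cell, 13 of 77 were at 0.3 or more (6.98% of genes) and 3 at -0.3 or less (4.15%). After centring each cell, 6 were at 0.3 or more (9.96%) and 3 at -0.3 or less (3.58%), so the share of subunits at 0.3 or more was then under that of all genes. By complex, the centred counts at 0.3 or more were 2 of 16 in V, 0 of 13 in IV and 1 of 8 in III. They were 1 of 4 in II and 2 of 36 in I, so complex V did not lead by share. Given genes per cell, the counts from V to I were 5, 3, 1, 1 and 3. For the S phase list the counts were 22 of 77 (15.1% of genes) at 0.3 or more and 1 (1.07%) at -0.3 or less, and 69 were above 0 (71.5% of genes). With the cell of 1316 genes left out, 17 were at 0.3 or more, against 12.5% of genes. Given genes per cell, 3 subunits were at 0.3 or more with S phase (5.85% of genes) and 3 at -0.3 or less (4.89%), and after centring 4 were at each end (10.9% and 2.67%).

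**Figure D5:**
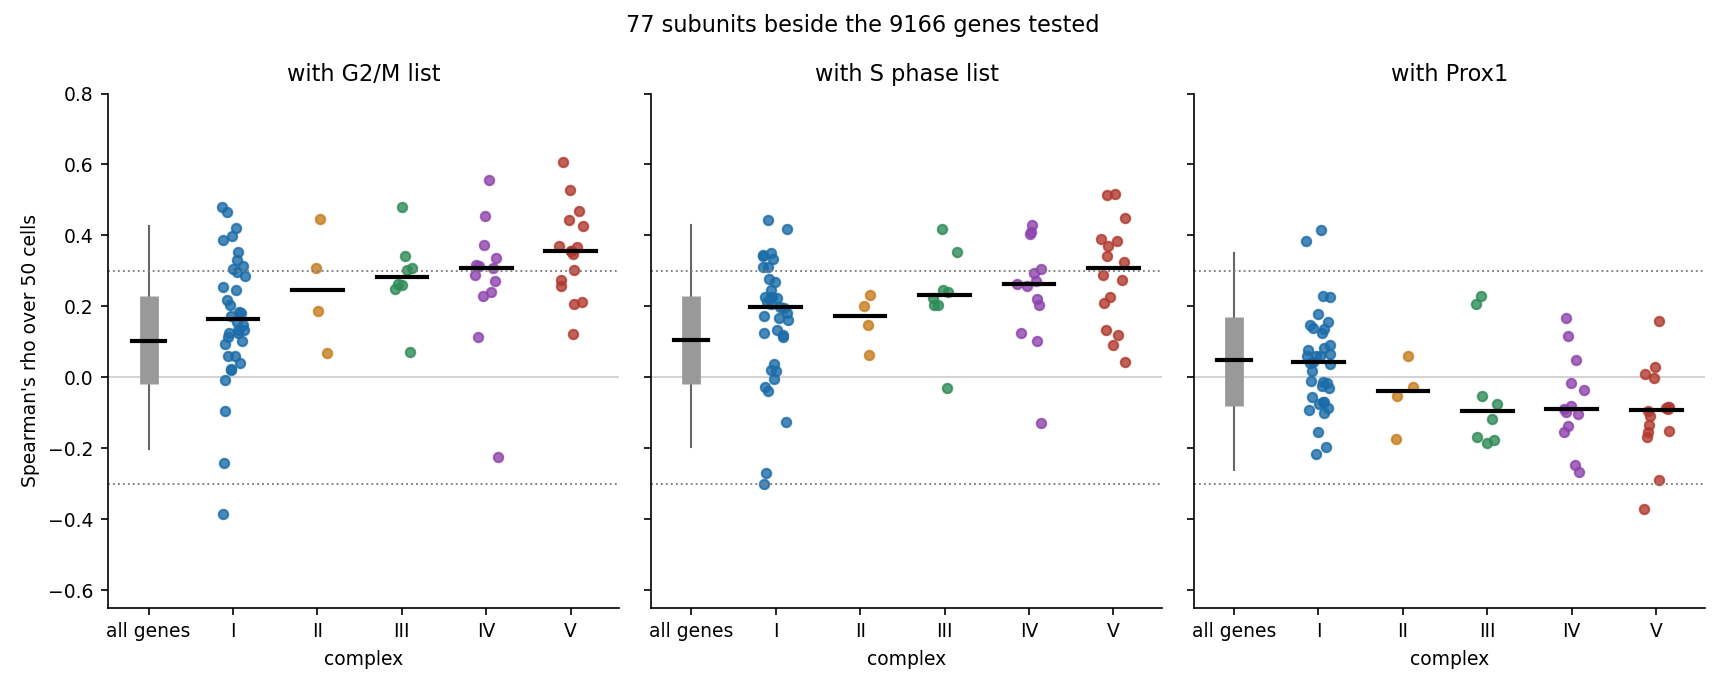
Spearman's rho of each of 77 subunits with the G2/M list, the S phase list and Prox1 over 50 cells, by complex, beside all 9166 genes tested (black bar median, grey box interquartile range, line 5th to 95th percentile); dotted lines mark rho of 0.3 and -0.3. Complex V has the highest median with the G2/M list (0.36), and Ndufa6 lies lowest.

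The gene with the highest rho with G2/M was Atp5b, at 0.61 (0.47 over the 32 cells of the lower first indexes and 0.44 over the 18 cells of the higher ones), and given genes per cell it was 0.48, with a Pearson's r of 0.36. Cox7a2, a complex IV subunit with 0, 145 and 410 TPM, followed at 0.55. Atp5o, the subunit of the stator stalk that anchors the F1 part (0, 197 and 472 TPM), had 0.53. Next came Ndufv1, which binds NADH and flavin (0.48), Uqcrc1 (0.48), Atp5a1 (0.47), Ndufb8 (0.47) and Cox6a1 (0.45). All 8 are subunits with positive partial values given genes per cell, from 0.33 to 0.48. These values are computed from the same rho by which the 8 were picked, so they are no separate evidence. Atp5o also kept 0.39 after centring, and Cox6a1 had 0.16.

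At the other end stood Ndufa6, an accessory subunit of the complex I matrix arm that carries the LYR motif (chromosome 15, 82350140 to 82354322, minus strand). Ndufa6 was seen in 49 cells at 0, 285 and 892 TPM (lowest, median, highest), and its rho was -0.39 with G2/M, -0.30 with S phase and 0.42 with Prox1, opposite in sign to most subunits. Given genes per cell the G2/M value was -0.50 and after centring -0.57, but Pearson's r was -0.077. In the index groups it was -0.52 over 32 cells and -0.06 over 18 cells, so it was near 0 in the second. The Prox1 value was 0.37 and 0.42 in these groups. Ndufa1, another accessory subunit of complex I on the X chromosome, had -0.24 with G2/M, Cox7a2l, which ties complex III to complex IV in supercomplexes, -0.22, Ndufv3 -0.09 and Ndufa7 -0.01. After centring, Ndufa1 stood at -0.38 and Cox7a2l at -0.49.

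With Prox1 the relation was weak, and by rho more subunits lay below 0 than above. Prox1 was seen in 41 of 50 cells at 0, 14.7 and 66.8 TPM (lowest, median, highest). The subunit level had a rho of -0.13 with it and a Pearson's r of 0.14, so the sign turned with the measure. The rho was -0.17 over the 32 cells of N704 to N707, 0.036 over the 18 cells of N708 to N710, and -0.28 and 0.021 in cells of N502 to N505 and N506 to N517. Given the S phase list, with which Prox1 itself had a rho of -0.42, it was 0.073, and after centring each cell it was -0.28. By complex, the rho was -0.02 for I, -0.15 for II, -0.18 for III, -0.14 for IV and -0.20 for V. Of the 77 subunits, 1 had a rho of -0.3 or less, against 3.26% of genes tested, and 2 had 0.3 or more, against 8.59%. Above 0 were 30 of 77, against 59.6% of genes, and the median was -0.04, beside 0.05 over all genes. After centring each cell, the median was -0.11, beside 0.07 over all genes. Given genes per cell, 2 were at 0.3 or more (9.87%) and 1 at -0.3 or less (2.84%).

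The one at -0.3 or less was Atp5b, at -0.37, followed by Atp5f1, the stator subunit b, at -0.29, Ndufa4, an accessory complex IV subunit, at -0.27 and Cox5a at -0.25. Among assembly factors Ndufaf8 had -0.35. The rho of Atp5b with Prox1 was -0.46 and -0.23 in these index groups, in the same order, and its Pearson's r was 0.034, so the sign of the linear measure differed. Without the cell with 1316 genes, 4 subunits were at -0.3 or less, against 4.87% of genes, and after centring 5 were, against 3.01%, with 2 at 0.3 or more, against 9.71%. The highest values belonged to Ndufa6 (0.42) and Ndufs4, an accessory subunit of the complex I matrix arm (0, 7.38 and 18.2 TPM, rho 0.38). Among assembly factors of complex II, Sdhaf1 had 0.33 and Sdhaf4 0.28, ahead of the complex V factor Atp5s at 0.24, and the value of Sdhaf1 was 0.45 in the index group N704 to N707 and -0.30 in N708 to N710.

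Partners of the chain outside the named prefixes gave the following counts at a rho of 0.3 or more with G2/M, against 14.8% of genes. Of 10 electron carrier and shuttle genes tested, 6 reached it, led by Slc25a5, an ADP and ATP carrier of the inner membrane, at a median of 2799 TPM and a rho of 0.59. Its muscle and brain counterpart Slc25a4 had a median of 280 TPM and a rho of 0.14 with G2/M and 0.42 with Prox1. The remaining assembly genes and subunits of complexes III and IV reached it in 2 of 16, the tricarboxylic acid cycle genes in 3 of 15, the regulators of mitochondrial biogenesis in 1 of 11 (Nrf1 at 0.37) and the glycolysis genes in 0 of 14. Cytosolic ribosomal protein genes reached it in 43 of 84, mitochondrial ribosomal protein genes in 27 of 78 and proteasome genes in 10 of 37. After centring (9.96% of genes), carriers reached it in 2 of 10 and the other complex III and IV genes in 1 of 16. Tricarboxylic acid cycle genes then had 1 of 15, regulators 1 of 11 and glycolysis genes 0 of 14. Cytosolic and mitochondrial ribosomal protein genes and proteasome genes had 19 of 84, 16 of 78 and 2 of 37. Given genes per cell (6.98%), the counts were 2, 0, 2, 1, 0, 37, 10 and 2 in this order. Ppargc1a, the co-activator of mitochondrial biogenesis, had a median of 0.12 TPM, 16 cells with at least 1 TPM and a rho of 0.05 with the subunit level, whereas Esrra, an orphan receptor it works with, had a median of 23 TPM and 38 such cells (rho 0.19). Myc had a rho of 0.41 with the subunit level and -0.01 with G2/M.

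Outside the named prefixes, the genes most like the subunit level, by Spearman's rho over 50 cells with the same sign in both first-index groups, were Got2, the mitochondrial aspartate aminotransferase (0.75; 0.74 over the 32 cells of N704 to N707 and 0.84 over the 18 others), and Usmg5, a small membrane protein of ATP synthase (0.71). Rpl27 had 0.70, Pdss2, an enzyme of ubiquinone synthesis, 0.70, and the Cox7c pseudogene entry Gm12338 0.69. Rpl41, Psmb5, Gm26510, Btbd9 and Sec61g had 0.66 to 0.69. Cytochrome c (Cycs, median 467 TPM) had 0.51 and cytochrome c1 (Cyc1, 481 TPM) 0.52.

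The promoter windows of the members were set beside those of other genes for motifs of factors known to control respiratory genes. Windows ran from 250 bases before to 50 after each start in the RefSeq table for GRCm38.p6, in which 80 of 97 genes had 85 windows. The motif of NRF1, a factor known for control of nuclear respiratory genes (both strands searched), was present in 18 of 73 subunit windows (24.7%), in 11% of the 9245 windows of genes tested and in 4.6% of all 32851 windows. By complex it was present in 8 of 34 windows for I (23.5%), 2 of 3 for II (66.7%), 1 of 5 for III (20%), 1 of 14 for IV (7.14%) and 6 of 17 for V (35.3%), and in 4 of 12 for assembly factors (33.3%). With so few windows in complexes II and III, these shares give no order of the complexes. The windows of Ndufa5 overlap and hold the same NRF1 site, at -190 and -26 from their starts. That site is counted once per window in the 18 and in the 8 of complex I. The ETS motif CCGGAAG was present in 21.9% of subunit windows, beside 20% in genes tested. The YY1 motif was present in 4 of 73 subunit windows (5.48%, against 1.81%), all of complex I. These matches are letters in a window and not binding. The 250 bases before the start are printed for Ndufb4 and Sdha, each with 3 NRF1 motifs, and for Cox6a1 and Atp5h, which hold both NRF1 and ETS motifs. Capitals mark matches to either motif on either strand, and the coordinates are chr16:37654369-37654618, chr13:74350241-74350490, chr5:115348959-115349208 and chr11:115419920-115420169 in that order, all on the minus strand of GRCm38.p6.
Ndufb4: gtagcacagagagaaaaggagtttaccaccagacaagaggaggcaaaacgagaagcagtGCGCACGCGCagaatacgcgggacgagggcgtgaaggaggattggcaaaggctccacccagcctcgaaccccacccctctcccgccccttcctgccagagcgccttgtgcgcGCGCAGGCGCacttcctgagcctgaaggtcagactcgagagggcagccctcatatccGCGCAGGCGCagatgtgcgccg
Sdha: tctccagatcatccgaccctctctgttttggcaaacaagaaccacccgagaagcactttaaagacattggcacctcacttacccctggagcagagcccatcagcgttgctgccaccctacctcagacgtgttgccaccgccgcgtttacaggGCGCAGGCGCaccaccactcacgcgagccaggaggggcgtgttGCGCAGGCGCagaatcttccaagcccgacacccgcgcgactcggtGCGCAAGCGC
Cox6a1: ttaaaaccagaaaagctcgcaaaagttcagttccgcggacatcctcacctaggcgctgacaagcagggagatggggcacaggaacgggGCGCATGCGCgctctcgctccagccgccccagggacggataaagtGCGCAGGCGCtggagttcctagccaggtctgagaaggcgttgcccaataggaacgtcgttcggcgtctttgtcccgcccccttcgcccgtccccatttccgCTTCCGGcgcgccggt
Atp5h: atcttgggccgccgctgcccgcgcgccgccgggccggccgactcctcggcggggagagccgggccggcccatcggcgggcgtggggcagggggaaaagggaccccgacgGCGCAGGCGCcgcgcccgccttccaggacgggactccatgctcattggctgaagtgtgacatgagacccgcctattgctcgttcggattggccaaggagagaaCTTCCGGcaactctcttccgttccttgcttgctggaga
The 4 genes differed in level, at medians of 30.6 TPM for Ndufb4, 32.4 for Sdha, 473 for Cox6a1 and 274 for Atp5h. Their rho with the G2/M list was 0.13, 0.19, 0.45 and 0.26, so windows with the same motif came with different relations.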

How the data were processed

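Single-cell RNA-seq (Bead-seq, per the labels) was available for 56 libraries of 1 mouse, as a table of TPM deposited by the authors. Per the submitters' processing notes, bcl2fastq 1.8.4, Bowtie2 2.2.9, RSEM 1.2.31 and GRCm38.p4 were used; how they were set, with which annotation and whether by strand, the sources used here do not say. Depth cannot be read from TPM, so no count test, interval or limit of detection was computed, and a 0 was read as listed at 0.

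Columns were matched by index pair, and symbols and coordinates came from GENCODE M21 (24235 of 24410 IDs matched). Of 1540 library pairs, 6 with Pearson's r above 0.9 (log2(TPM + 1)) were averaged, which gave 50 cells. Genes at 1 TPM in 20% of cells were tested (9166), Spearman's rho was computed on log2(TPM + 1), and 0.3 was a call of size with no p-value. The G2/M and S phase lists are means over the list. No cell was taken as a replicate. Near-identical copies were sought with BLAST+ 2.17.0. The correlation code was tested on simulated data. The members, lists and tests were chosen with earlier results of these data known. Members named are the 3 highest and the lowest per complex, the isoforms, the extremes by rho and SD; the assembly factors, copies and promoters printed were picked after their values were seen. Alternatives were other pseudocounts, Pearson's r, partial rho, rescaled or centred TPM, other sets of libraries, cells and members, and other thresholds. The scripts ran under Python 3.11.15 with SciPy 1.17.1, pandas 2.3.3, numpy 2.4.6 and matplotlib 3.10.9.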

Additional observations from a re-analysis of the deposited data

How the results depend on the processing

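A rho was called unmoved within 0.1, a count within 1.5 times and a level within 1 SD over cells. The subunit level kept its sign with G2/M over the 26 settings run (0.18 to 0.57) and with S phase over 25 (0.043 to 0.53), but not with Prox1 (26 settings, -0.28 to 0.14). Outside these settings, given the mean of mitochondrial ribosomal protein genes, the sign turned for both G2/M (-0.073) and S phase (-0.32). Moved values of the subunit level were, for G2/M, S phase and Prox1 in that order, 0.34, 0.35 and 0.14 with Pearson's r and 0.24, 0.24 and -0.28 with centred cells. Given genes per cell, G2/M was 0.18 and S phase 0.043, and given the S phase list, G2/M was 0.28 and Prox1 0.073. In cells of i7 indexes N708 to N710, S phase was 0.25 and Prox1 0.036. Prox1 was -0.28 in cells of N502 to N505, 0.021 in N506 to N517 and -0.25 without N508. The 33 subunits at 0.3 or more with G2/M became 16 with Pearson's r, 13 given genes per cell, 6 with centred cells and 21 without the cell with the fewest genes. The 22 with S phase became 3 given genes per cell and 4 with centred cells. The 1 subunit at -0.3 or less with Prox1 became 0 with Pearson's r or without N505, 2 without N709, N506 or N508, 3 with rescaled TPM or without N502 or N503, 4 without the cell with the fewest genes or in cells of N708 to N710, 5 without 2 such cells, without N517, with centred cells or in cells of N704 to N707, and 11 in cells of N502 to N505. Shares of all genes are given above for partial rho, centred cells and without the cell with the fewest genes. For the other settings, among them all sets by index, no such share was computed. Counts in those settings are therefore not a result about the subunits. With Pearson's r, Atp5b with Prox1 turned to 0.034, Atp5b with G2/M was 0.36 and Ndufa6 with G2/M was -0.077. The median rho among subunits was 0.44 as Pearson's r and 0.13 with centred cells. Genes seen in every cell were 18 above 0 TPM, 1 at 10 TPM and 39 without the cell with the fewest genes. Medians per subunit, with ribosomal protein genes and Gm10925 left out of the TPM total, were 104, 41.9, 307, 315 and 304 TPM for complexes I to V. The causes were not tested. Leaving out Cox7c and Ndufs5 or the 2 cells with the fewest genes, and applying the alternatives to counts and single genes, was chosen after seeing the data. Adding pseudogenes named after subunits gave no value, since the table holds 0 such entries. No paired analysis was possible because there is 1 group, with replicate numbers in accession order.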

Other observations

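Genes that handle reactive oxygen made by the chain were also measured. Gpx1, a glutathione peroxidase, had a median of 3821 TPM and was seen in 50 cells. Sod1, the cytosolic superoxide dismutase, had a median of 753 TPM and a rho of 0.62 with the G2/M list, while the mitochondrial Sod2 had 33.9 TPM and a rho of 0.05. Of 9 such genes tested, 1 reached a rho of 0.3 with G2/M, against 14.8% of genes. Txn2, the mitochondrial thioredoxin, had a rho of 0.54 with the subunit level and Prdx3, a mitochondrial peroxiredoxin, 0.43. These are values over 50 cells of 1 mouse, in which the number of genes seen per cell also moved with the subunit level (rho 0.64).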
